A study of Sus scrofa with 16 samples.

Results

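*ERG*, *PECAM1* and *ENG* are genes of the endothelial lineage, the cells that line blood vessels, and their transcripts were followed here in cultures of muscle satellite cells (SCs). The 3 genes were chosen by name, as 3 of the 3875 genes in the count table, and the 2 technical columns of each sample were added. All 3 names are current symbols of protein-coding pig genes.

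The SCs came from the intercostalis (*INT*) muscle of male piglets that were 3 days old, 4 with Duchenne muscular dystrophy (DMD), caused by a deletion of exon 52 of *DMD*, and 4 wild-type (WT) piglets. They were enriched with magnetic beads: cells carrying CD31, the protein that *PECAM1* encodes, or the blood cell antigen CD45 were removed, and cells carrying integrin β1, NCAM1 or M-cadherin were kept. Each animal gave 1 differentiated (DIFF) culture, in which 5% horse serum replaced the growth medium, and 1 proliferating (PROL) culture, taken at passage 6 in medium with 20% fetal bovine serum and fibroblast growth factor. The sequencing methods state 10 days of differentiation and the culture methods 7. The 16 libraries form the groups DMD DIFF, DMD PROL, WT DIFF and WT PROL, with 4 animals each, and all 4 groups had passed the same cell sort.

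Each library held 1110050 to 1781174 counts. Levels are given as CPM, counts divided by the library total after adjustment with TMM factors of 0.864 to 1.17. DMD PROL replicate 4 stood apart, with 20.4% of its counts in the 18S ribosomal RNA gene *RN18S*, against 6.32% to 11.7% in the other 15 libraries. A gene was called where edgeR's quasi-likelihood test gave a Benjamini-Hochberg adjusted *p* under 0.05 and the log2 fold change exceeded 0.6 in either direction.

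ERG is a transcription factor of the ETS family that maintains endothelial identity and holds the cells of a vessel wall together, in part by activating genes of their junctions. PECAM1 (CD31) is an adhesion molecule of those junctions that also sits on platelets and leukocytes, where it takes part in their passage out of vessels. ENG (endoglin, CD105) is a coreceptor for ligands of the TGF-β family, abundant on endothelium that is forming new vessels and present on mesenchymal cells as well. In skeletal muscle the capillary endothelium lies close to the SC niche.

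All 3 genes were counted in these cultures, *ERG* in every library and the other genes at lower counts. Over the 4 libraries of a group, *ERG* had 166 counts in DMD DIFF, 124 in DMD PROL, 304 in WT DIFF and 642 in WT PROL. *PECAM1* had 56, 12, 222 and 122 counts in the same groups, and 1 library, DMD PROL replicate 2, had none. *ENG* had 36, 30, 66 and 178 counts. All values of the table are even, which is not explained in the sources used here, so intervals that take each count as a molecule may be too narrow. Libraries are made from transcript ends and not scaled to gene length, so levels are compared between groups and never between genes.

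**Figure D1:**
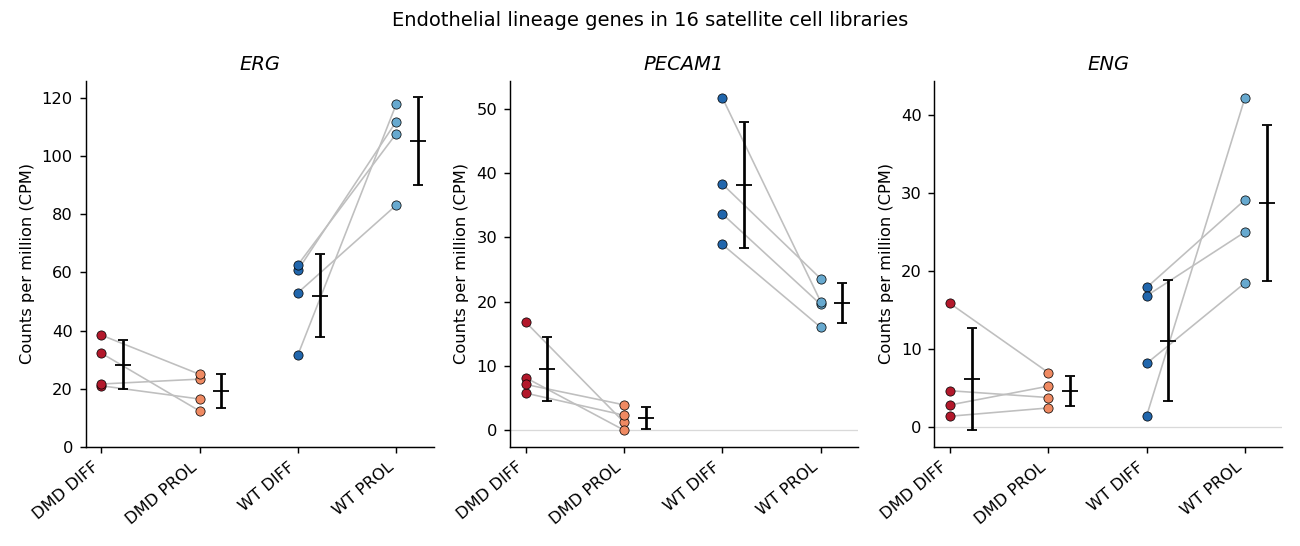
CPM of *ERG*, *PECAM1* and *ENG* in each of the 16 libraries, by group. Each point is 1 animal, grey lines join the DIFF and PROL cultures of an animal, and black bars give the mean and SD of 4 animals; *ERG* lies between 12.3 and 38.4 CPM in the 8 DMD libraries and between 31.6 and 118 CPM in the 8 WT libraries.

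The genotypes were compared first in proliferating cells, where all 3 genes were lower in DMD. *ERG* stood at 12.3, 16.4, 23.3 and 24.9 CPM in DMD PROL replicates 1 to 4, against 118, 83.1, 112 and 108 CPM in WT PROL. *PECAM1* was at 1.23, 0, 2.33 and 3.94 CPM in DMD PROL, against 16.0, 23.6, 19.6 and 20.0 CPM in WT PROL. For both genes every DMD library lay below every WT library. On the library total without TMM factors, 3 counts in the library without a *PECAM1* count would be 2.03 CPM. On that scale the exact 95% upper limit of a count of 0 is 2.50 CPM, or 4.99 CPM with halved counts. These limits cover counting error only.

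*ENG* was at 2.46, 3.79, 6.98 and 5.25 CPM in DMD PROL, against 29.1, 42.2, 25.0 and 18.5 CPM in WT PROL, again without overlap. Its group means were 4.62 ± 1.94 and 28.7 ± 10.0 CPM (SD, n = 4 animals each). The fit gave 5.48-fold lower levels in DMD for *ERG* (log2 fold change −2.46, SE 0.22, edgeR adjusted *p* = 8.3e-07), 10.3-fold for *PECAM1* (−3.37, SE 0.53, edgeR adjusted *p* = 1.9e-04) and 6.16-fold for *ENG* (−2.62, SE 0.39, edgeR adjusted *p* = 1.2e-04). The 3 members were thus called lower in PROL, where 9.87% of the 1914 genes tested were called lower and 14.3% had all DMD libraries below all WT libraries. Without DMD PROL replicate 4 the log2 fold changes were −2.59 for *ERG*, −3.95 for *PECAM1* and −2.68 for *ENG*, and all 3 stayed called. In bulk cultures, fewer cells of a type and less RNA per cell cannot be told apart.

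In differentiated cells *PECAM1* and *ERG* were again lower in DMD. *ENG* was not called, at a log2 fold change close to that of *ERG* and with a larger error. *PECAM1* stood at 16.8, 8.16, 5.76 and 7.11 CPM in DMD DIFF, against 28.9, 38.3, 33.6 and 51.7 CPM in WT DIFF, with no overlap. Its mean was 9.46 ± 4.99 CPM in DMD DIFF and 38.1 ± 9.84 CPM in WT DIFF (SD, n = 4 each), 4.03-fold lower in DMD (log2 fold change −2.01, SE 0.35, edgeR adjusted *p* = 1.4e-04).

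*ERG* stood at 32.2, 21.0, 21.6 and 38.4 CPM in DMD DIFF, against 31.6, 53.0, 60.8 and 62.6 CPM in WT DIFF. The groups overlapped, since WT DIFF replicate 1 lay below DMD DIFF replicates 1 and 4. The level was 1.85-fold lower in DMD (log2 fold change −0.89, SE 0.27, edgeR adjusted *p* = 0.0107). The second technical column alone gave −0.64 and did not pass (edgeR adjusted *p* = 0.110). In DIFF, 17.5% of the 1916 genes tested were called lower and 23.2% had no overlap in that direction.

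For *ENG* the libraries of both genotypes were scattered, with 1.40, 4.66, 15.8 and 2.85 CPM in DMD DIFF, against 17.9, 1.47, 16.8 and 8.17 CPM in WT DIFF. The highest DMD library was replicate 3, with 22 of the 36 DMD DIFF counts, and the lowest WT library was replicate 2, with 2 counts. On the library total without TMM factors these 2 counts are 1.27 CPM, with an exact 95% interval of 0.154 to 4.60 CPM. With halved counts the interval is 0.0322 to 7.09 CPM. The log2 fold change was −0.87 with an interval of −2.26 to 0.53 (edgeR adjusted *p* = 0.342). Without DMD DIFF replicate 3 it was −1.85 and passed (edgeR adjusted *p* = 0.0448).

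The change between the states was then followed within each genotype, for which each animal supplied both cultures. In DMD, *PECAM1* was higher in DIFF, while *ERG* and *ENG* were not called. *PECAM1* averaged 9.46 ± 4.99 CPM in DMD DIFF and 1.87 ± 1.67 CPM in DMD PROL (SD, n = 4 each), was higher in DIFF in 4 of 4 animals, and did not overlap, the lowest DIFF library lying at 5.76 CPM and the highest PROL library at 3.94 CPM. *PECAM1* and *ENG* were too low for the count filter in this comparison and were taken from a fit without it. There *PECAM1* was 4.89-fold higher (log2 fold change 2.29, SE 0.70, edgeR adjusted *p* = 0.00575), where 10.7% of 3046 genes were called higher.

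The size of that change moved with 2 libraries. Without DMD DIFF replicate 1, which held 24 of the 56 DIFF counts of *PECAM1*, the log2 fold change was 1.85 and did not pass (edgeR adjusted *p* = 0.0911), and without DMD PROL replicate 4, which held 6 of the 12 PROL counts, it was 2.88. The first technical column alone gave 1.60 (edgeR adjusted *p* = 0.289). *ERG* averaged 28.3 ± 8.49 CPM in DMD DIFF and 19.2 ± 5.91 CPM in DMD PROL, with overlapping libraries and DIFF above PROL in 3 of 4 animals (log2 fold change 0.54, interval −0.05 to 1.13, edgeR adjusted *p* = 0.161). *ENG* averaged 6.19 ± 6.57 and 4.62 ± 1.94 CPM, higher in DIFF in 2 of 4 animals. Its log2 fold change was 0.40, with an interval of −0.89 to 1.69 (edgeR adjusted *p* = 0.708), and −0.61 without DMD DIFF replicate 3. Of the 1886 genes that passed the filter, 16% were called higher in DIFF, and 21.7% had no overlap in that direction.

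In WT the members moved in different directions, *PECAM1* higher in DIFF and *ERG* and *ENG* lower. *PECAM1* averaged 38.1 ± 9.84 CPM in WT DIFF and 19.8 ± 3.09 CPM in WT PROL (SD, n = 4 each), and it was higher in DIFF in 4 of 4 animals. *ERG* averaged 52.02 ± 14.2 CPM in WT DIFF and 105 ± 15.3 CPM in WT PROL, and *ENG* 11.1 ± 7.75 and 28.7 ± 10.0 CPM. Both were lower in DIFF in 4 of 4 animals.

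None of the 3 genes overlapped between the WT states, although for *ENG* the gap was narrow, with a highest DIFF library at 17.9 CPM and a lowest PROL library at 18.5 CPM. *PECAM1* rose 1.89-fold (log2 fold change 0.92, SE 0.26, edgeR adjusted *p* = 0.00834). *ERG* fell by 1.03 on the log2 scale (SE 0.20, edgeR adjusted *p* = 6.2e-04) and *ENG* by 1.38 (SE 0.49, edgeR adjusted *p* = 0.0336). In WT, 17.9% of the 1921 genes tested were called higher in DIFF and 14.3% lower, and 23.6% and 19.5% had no overlap in these directions. The call of *ENG* was lost without WT PROL replicate 1 (−1.38, edgeR adjusted *p* = 0.0700), WT PROL replicate 2 (−1.12, adjusted *p* = 0.0948) or WT DIFF replicate 4 (−1.26, adjusted *p* = 0.0934). The second technical column alone gave −1.20 for *ENG* (edgeR adjusted *p* = 0.0643). The call of *PECAM1* was lost with library size alone as the scale (0.58, edgeR adjusted *p* = 0.0783) and with the first technical column alone (0.89, adjusted *p* = 0.0835).

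Whether the states changed a gene differently in DMD and WT was tested as an interaction over all 16 libraries. For *ERG* the change with differentiation was 1.56 higher in DMD than in WT on the log2 scale (SE 0.36, edgeR adjusted *p* = 0.00182), and the genotype difference was accordingly smaller in DIFF than in PROL. The first technical column alone gave 1.37 (edgeR adjusted *p* = 0.0615). For *PECAM1* the difference was 1.35 (interval 0.09 to 2.61, edgeR adjusted *p* = 0.124), and it passed only without DMD PROL replicate 4 (1.94, adjusted *p* = 0.0439). For *ENG* it was 1.75 (interval 0.05 to 3.45, edgeR adjusted *p* = 0.143). Of 2030 genes, 10.6% were called with a positive interaction and 23.5% in either direction.

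**Figure D2:**
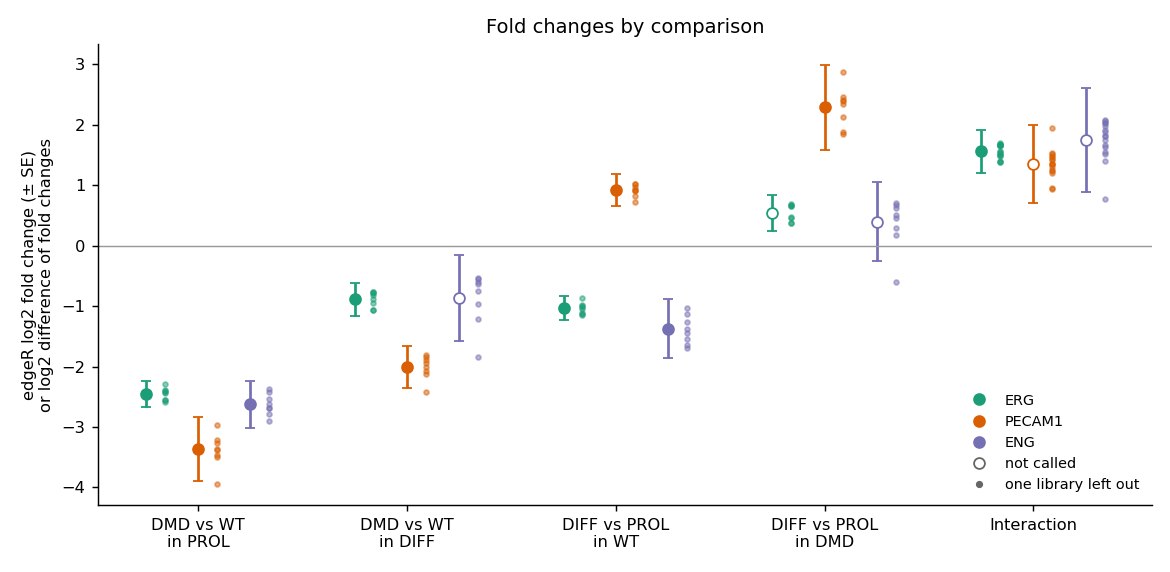
Log2 fold changes of the 3 genes in the genotype and state comparisons, and their log2 differences in the interaction. Large points give the edgeR value with its SE, open where the gene was not called, and small points the value with 1 library left out; *ENG* in DIFF moves between −1.85 and −0.54 as libraries are left out, and *ERG* in PROL between −2.59 and −2.29.

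The order of the 4 groups differed between the genes. For *ERG* it was WT PROL, WT DIFF, DMD DIFF and DMD PROL from highest to lowest, and for *ENG* the same. For *ERG* the last of these neighbours, DMD DIFF and DMD PROL, did not differ beyond their spread, and for *ENG* the 3 groups below WT PROL overlapped. For *PECAM1* the order was WT DIFF, WT PROL, DMD DIFF and DMD PROL, and the highest DMD DIFF library, at 16.8 CPM, lay above the lowest WT PROL library, at 16.0 CPM.

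Averaged over its 2 cultures, each animal gave 1 value per gene. *ERG* had a mean log2 CPM of 4.58 ± 0.31 in DMD and 6.21 ± 0.21 in WT animals (SD, n = 4 each), a difference of −1.63 (exact permutation test, two-sided *p* = 0.0286). *PECAM1* stood at 2.42 ± 0.44 and 4.83 ± 0.25, a difference of −2.41 (same exact test, *p* = 0.0286). In both genes the 4 DMD animals lay below the 4 WT animals, and 0.0286 is the smallest *p* that 4 against 4 animals can give. The share of all genes that split the animal means in this way was not computed. Within a state, all DMD libraries lay below all WT libraries for 14.3% of genes tested in PROL and 23.2% in DIFF. *ENG* stood at 2.53 ± 0.78 and 4.07 ± 0.54, a difference of −1.54 (same exact test, *p* = 0.0571), and its highest DMD animal lay at 3.58, above the lowest WT animal at 3.46. These are 3 tests, and the *p* values are not adjusted.

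The 2 technical columns of a library show how far low counts carry. *ERG* had counts in both columns of all 16 libraries, and the columns lay within 2-fold of each other in 14. The exceptions were DMD PROL replicate 1, with 2 and 18 counts, and DMD DIFF replicate 1, with 14 and 32. *PECAM1* had counts in both columns of 12 libraries, in 1 column of 3 and in none of 1, and 9 of the 12 pairs agreed within 2-fold. *ENG* had counts in both columns of 13 libraries, with 12 pairs within 2-fold, and in 1 column of 3. In each column the mean of DMD PROL was below that of WT PROL for all 3 genes. For *ENG* these means were 3.82 and 38.6 CPM in the first column and 5.64 and 27.6 CPM in the second.

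**Figure D3:**
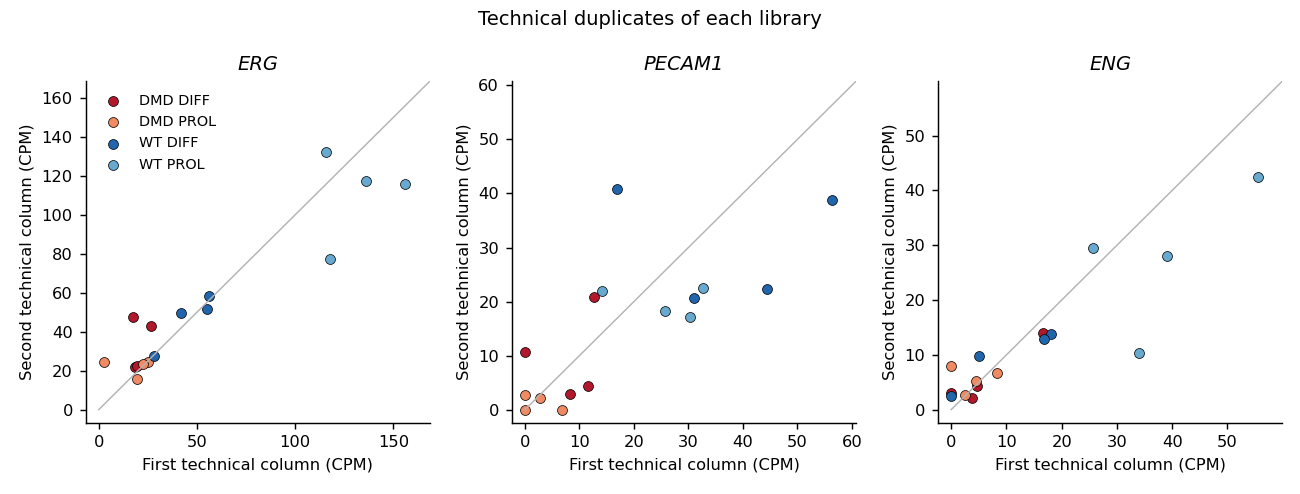
CPM of the 3 genes in the first (horizontal) and second (vertical) technical column of each library, scaled to the total of each column without TMM factors. Each point is 1 library and the grey line marks equal values; the 4 WT PROL libraries lie to the upper right of the 4 DMD PROL libraries in each panel.

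The label of the lineage was then set against other genes that define endothelium. Of a list of 35 such genes, *PECAM1* and *ERG* included, 12 were among the counted genes, and *CDH5*, *KDR*, *FLT1*, *TEK* and *TIE1* are not analysed here. Of the 12, 6 had 12 or fewer counts over all 16 libraries together: *VWF*, which encodes von Willebrand factor, had 4, the tight junction gene *CLDN5* 2, *SELE* (E-selectin) 6 and *NOS3* (endothelial nitric oxide synthase) 12. Besides *ERG* and *PECAM1*, only *RAMP2* and *PALMD* reached the count filter. These 6 markers were thus at or near 0 in every group, while *ERG* was counted in every library.

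In both states, 3 of the 4 tested genes of this list were lower in DMD and 1 was higher, where 17.5% of all genes tested were called lower and 16.1% higher in DIFF, and 9.87% and 8.36% in PROL. The median log2 fold change over all genes tested was −0.03 in DIFF and −0.0021 in PROL. *ERG* and *PECAM1* are 2 of these 4 genes, so the list adds only *RAMP2* and *PALMD*, which went opposite ways. The log2 fold changes of *RAMP2* were −2.54 in DIFF and −2.18 in PROL, and those of *PALMD* 2.66 and 3.97. The list is therefore not read as a shift of endothelial markers. *RAMP2*, which encodes a subunit of the adrenomedullin receptor, was lower in DMD in both states, with 8.32 ± 2.34 CPM in DMD DIFF, against 48.8 ± 10.5 CPM in WT DIFF, and 6.15 ± 1.41 CPM in DMD PROL, against 28.03 ± 7.94 CPM in WT PROL (SD, n = 4 each). *PALMD*, which encodes the cytosolic protein palmdelphin, was higher in DMD, with 266 ± 23.001 CPM in DMD DIFF, against 41.9 ± 15.9 CPM in WT DIFF, and 37.4 ± 10.9 CPM in DMD PROL, against 2.39 ± 2.66 CPM in WT PROL. Between states, 1 of 3 tested genes, *PALMD*, rose in DMD, beside 16% of all genes. In WT *PALMD*, *PECAM1* and *RAMP2* rose and *ERG* fell, beside 17.9% and 14.3% of all genes. In the interaction *ERG* was the only one of 4 called, beside 23.5% of all genes called in either direction. *PECAM1* missed the count filter between the DMD states and was called there in the fit without it, as given above. In fits without DMD PROL replicate 4, *PECAM1* reached the filter between the DMD states and was called, and it also passed in the interaction.

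A further list held 40 genes that endothelium shares with other cells, *ENG* among them, of which 27 were counted. In PROL, 7 of 14 tested were lower in DMD and 1 was higher, with a median log2 fold change of −1.29, beside the 9.87% and 8.36% of all genes. Beside *ENG*, those with the smallest *p* were *VCAM1*, an adhesion molecule for leukocytes (−3.52), *ITGB3*, the integrin β3 gene (−3.46), and *GATA2*, a transcription factor of blood and vessel development (−3.69; edgeR, adjusted *p* at most 6.4e-06). *GATA2* averaged 3.48 ± 2.98 CPM in DMD PROL and 44.6 ± 11.0 CPM in WT PROL. In DIFF the same list had 7 of 16 lower and 7 higher, with a median of −0.32, beside 17.5% and 16.1% of all genes. *KLF4*, a transcription factor also found in endothelium, was lower in DMD DIFF (−1.87), as was *CLIC2*, an intracellular channel gene (−4.88). *LIPG*, which encodes endothelial lipase, was higher (4.69), as was *PLAT*, the tissue plasminogen activator gene (1.47; edgeR adjusted *p* at most 1.0e-05 for these 4).

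Between the DMD states, 4 of 14 tested genes of the shared list rose, *LIPG* (3.13), *PLAT* (1.29), the Notch target *HEY2* (2.34) and the hypoxia-related factor *EPAS1* (2.03), and none fell, with a median of 0.81, where 16% of all genes were called higher and 12.4% lower. Between the WT states, 4 of 14 were higher in DIFF and 4 lower, beside 17.9% and 14.3% of all genes, with a median of −0.16, and *KLF4* (1.17), *CLIC2* (1.41) and *VCAM1* (1.31) rose while *CAV1*, the caveolin gene, fell by 0.69. In the interaction 5 of 18 were positive and 1, *KLF4*, was negative, where 10.6% of all genes were called positive and 12.9% negative. *CD34*, a surface antigen of endothelial and progenitor cells that was singled out after its values were seen, had 2 counts in DMD DIFF and 2 in DMD PROL, against 32 in WT DIFF and 32 in WT PROL, and missed the count filter in all comparisons.

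**Figure D4:**
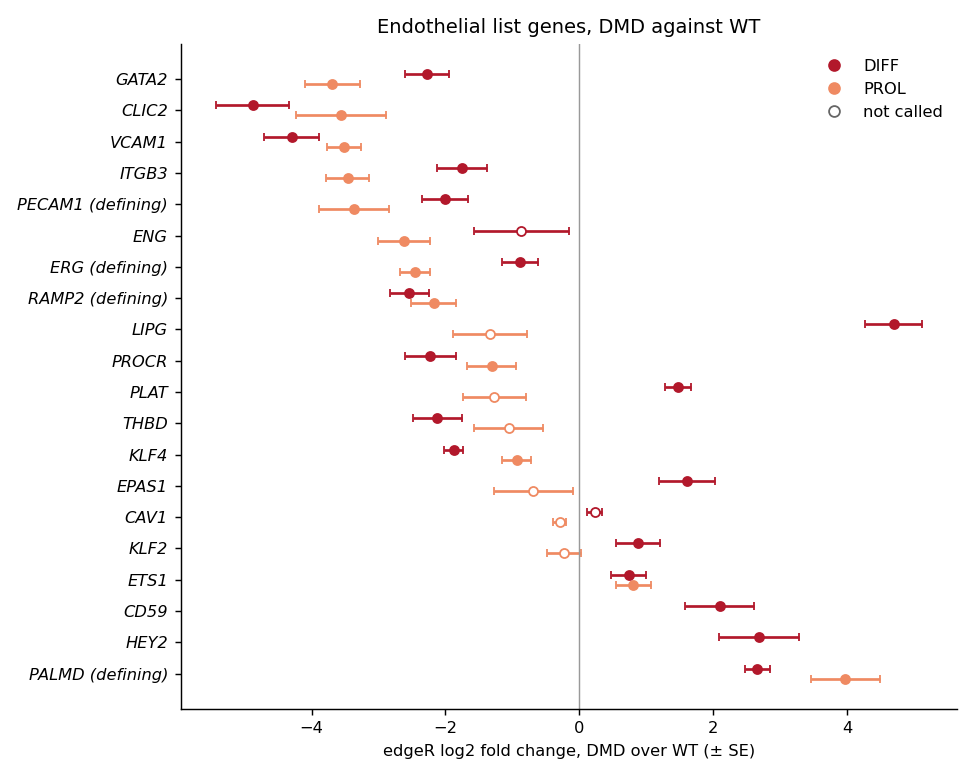
Log2 fold change of DMD over WT, with its SE, for each tested gene of the endothelial lists, in DIFF and in PROL. Open points were not called and genes that define endothelium are marked as such; *ERG*, *PECAM1* and *RAMP2* lie left of 0 in both states and *PALMD* right of it.

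Genes that work with each member were described in the same way. For *ERG*, 6 of 27 ETS factor genes were counted, and *ETS1* was the other one tested. *ETS1*, which is expressed in endothelium and in lymphocytes, was higher in DMD in both states, with a log2 fold change of 0.73 in DIFF (edgeR adjusted *p* = 0.0259) and 0.81 in PROL (edgeR adjusted *p* = 0.0286). It stood at 40.6 ± 8.50 CPM in DMD DIFF, against 24.3 ± 6.39 CPM in WT DIFF, and at 40.2 ± 6.38 CPM in DMD PROL, against 22.97 ± 8.13 CPM in WT PROL. Its change between states was not called in either genotype.

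For *PECAM1*, 12 of 21 genes of its partners and of leukocyte passage were counted and 6 tested. In DIFF 4 were lower in DMD, *VCAM1*, *ITGB3*, *PECAM1* itself and *JUP*, the plakoglobin gene of cell junctions, at −0.62 (edgeR adjusted *p* = 0.00366), and in PROL the first 3 of these. None was higher, beside 17.5% of all genes lower in DIFF and 9.87% in PROL. The medians, *PECAM1* included, were −1.19 in DIFF and −1.95 in PROL. Without *PECAM1*, 3 of 5 were lower in DIFF and 2 of 5 in PROL. The middle value of these 5 was that of *JUP*, −0.62 in DIFF and −0.53 in PROL. Between the DMD states none of 5 tested was called (3 of 6, *PECAM1* included, without DMD PROL replicate 4). Of all genes, 16% were called higher there and 12.4% lower. In WT *VCAM1*, *JUP* and *PECAM1* of 6 tested rose in DIFF, beside 17.9% of all genes. In the interaction *ITGB3* alone of 6 was called, with 1.71 (edgeR adjusted *p* = 0.0186), beside 23.5% of all genes in either direction.

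For *ENG*, 22 of 33 genes of its receptor complex and of TGF-β or BMP signaling were counted. In PROL, 3 of 14 tested, *ENG* itself among them, were lower in DMD and 2 higher, beside 9.87% and 8.36% of all genes, with a median of −0.21. The inhibitor of differentiation *ID2*, a target of BMP signals, was at −0.74 (edgeR adjusted *p* = 0.00156), and the ligand gene *BMP4* (0.81, adjusted *p* = 0.00846) and the receptor gene *BMPR1B* (1.49, adjusted *p* = 0.0178) were higher. In DIFF, 5 of 16 were lower and 2 higher, beside 17.5% and 16.1% of all genes, with a median of −0.29. The coreceptor gene *TGFBR3* (betaglycan), which like *ENG* presents TGF-β ligands, was at 2.44 ± 2.22 CPM in DMD DIFF and 40.2 ± 8.15 CPM in WT DIFF (log2 fold change −4.04, edgeR adjusted *p* = 1.0e-06). The BMP target *ID1* was at 99.3 ± 13.2 and 239 ± 37.5 CPM (−1.27, edgeR adjusted *p* = 1.3e-06). *BMP4* was lower in DMD DIFF (−1.16) and the ligand gene *TGFB3* higher (2.39).

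With differentiation, 1 of 12 genes of this list rose in DMD and 3 fell, beside 16% and 12.4% of all genes, with a median of 0.22. In WT 4 of 15 rose and 5 fell, *ENG* among them, beside 17.9% and 14.3% of all genes, with a median of −0.13. *ID1* fell by 2.60 in DMD and by 1.72 in WT. *ID2* fell by 0.70 in DMD and by 1.27 in WT, and *TGFB1*, a TGF-β ligand gene, fell by 1.11 in DMD and by 0.98 in WT. *TGFB3* rose by 3.73 in DMD and by 2.18 in WT. *BMP4* rose by 2.33 in WT and was not called in DMD (0.37). In the interaction 1 of 16 was positive, *TGFB3*, and 3 were negative, *BMP4*, *ID1* and *ACVR2A*, an activin receptor gene. Of all genes, 10.6% were called positive and 12.9% negative.

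Vessel growth factors and their receptors were represented by 10 of 27 genes. In PROL 4 of 5 tested were lower in DMD, beside 9.87% of all genes, and none was higher. They were *ANGPTL4*, which encodes a secreted inhibitor of lipoprotein lipase (−2.81, edgeR adjusted *p* = 1.1e-06), *RAMP2*, the adrenomedullin gene *ADM* (−0.63, edgeR adjusted *p* = 0.00588) and *VEGFA*, the principal growth factor of endothelium (−1.43, edgeR adjusted *p* = 0.0101). In DIFF 2 of 4, *ADM* and *RAMP2*, were lower and *VEGFA* was higher (1.63, edgeR adjusted *p* = 7.6e-05), beside 17.5% and 16.1% of all genes. *VEGFA* stood at 52.4 ± 12.6 CPM in DMD DIFF, against 16.8 ± 3.94 CPM in WT DIFF, and at 20.4 ± 8.55 CPM in DMD PROL, against 54.6 ± 22.7 CPM in WT PROL. Its interaction was 3.06 (edgeR adjusted *p* = 2.9e-05). *ADM*, whose product signals through a receptor with RAMP2, was at 279 ± 42.0 CPM in DMD DIFF, against 2701 ± 296 CPM in WT DIFF. With differentiation, 3 of 5 genes rose in DMD, beside 16% of all genes, and 3 rose and 1 fell in WT, beside 17.9% and 14.3%.

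Other cells that could carry these transcripts were followed with marker lists. *PECAM1* is also a gene of blood cells, of whose list 16 of 24 genes were counted. Of these, 6 had no count in any library, the genes *FCER1G*, *C1QA*, *C1QB*, *CD3E*, *HBB* and *PPBP*, and 2 reached the filter. *CD14*, a receptor of myeloid cells that other cells express too, was lower in DMD DIFF (−1.40) and DMD PROL (−0.71; not called without DMD PROL replicate 4). The summed level of the list was 33.6 to 40.3 CPM in DMD DIFF, 36.7 to 54.7 in DMD PROL, 59.9 to 74.3 in WT DIFF and 44.6 to 88.0 in WT PROL. Of 4 lymphatic markers 1, *PROX1*, was counted, at 0 to 4.27 CPM per library.

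Of the fibroblast and fibro-adipogenic list, 9 of 17 genes were counted, and 6 of 8 tested were lower in DMD DIFF and 5 of 6 in DMD PROL, beside 17.5% and 9.87% of all genes. The matrix genes *DCN* (−4.23 in DIFF and −2.90 in PROL) and *POSTN* (−5.93 and −4.31) were among them. Its summed level was 10143 to 13178 CPM in DMD DIFF, 4165 to 4618 in DMD PROL, 22051 to 25170 in WT DIFF and 8341 to 10124 in WT PROL. Of the myogenic list, 16 of 25 genes were counted, and all 11 tested in DIFF and all 10 in PROL were higher in DMD, beside 16.1% and 8.36% of all genes. They included *DES*, the desmin gene (2.92 in DIFF and 4.03 in PROL), and the myosin light chain gene *MYLPF* (2.51 and 4.95). It summed to 25974 to 32843 CPM in DMD DIFF, 7834 to 12397 in DMD PROL, 3701 to 6779 in WT DIFF and 409 to 579 in WT PROL.

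Pericyte and smooth muscle markers, 6 of 14 counted, were higher in DMD DIFF for 4 of 4 tested and lower in DMD PROL for 3 of 5, beside 16.1% and 9.87% of all genes. The smooth muscle actin gene *ACTA2* (3.54) and *TAGLN* (2.47) were higher in DMD DIFF and not called in PROL. *ANPEP* (−1.76), *RGS5* (−4.40) and *CNN1* (−1.13, not called without DMD PROL replicate 4) were lower in DMD PROL. *RGS5* stood highest in WT PROL, at 105 ± 79.8 CPM, against 4.91 ± 3.71 in DMD PROL, 4.29 ± 4.55 in DMD DIFF and 5.81 ± 3.30 in WT DIFF. The list summed to 15854 to 20450 CPM in DMD DIFF, mostly *ACTA2* and *TAGLN*, and to 1523 to 3498 CPM in the other 3 groups. Of the antigens of the cell sort, *PECAM1* and *ITGB1* were counted of 5. *ITGB1*, integrin β1, was higher in DMD DIFF (1.16, edgeR adjusted *p* = 4.5e-08) and not called in PROL (0.28, adjusted *p* = 0.189). The summed defining endothelial markers without *ERG* and *PECAM1* were at 260 to 307 CPM in DMD DIFF, 42.0 to 68.7 in DMD PROL, 71.5 to 121 in WT DIFF and 25.0 to 43.4 in WT PROL. *PALMD* made nearly all of the sum in DMD DIFF. Without it, a choice that followed from these values, the 9 remaining markers summed lower in every DMD library than in every WT library. Their sums were 8.40 to 13.0 CPM in DMD DIFF, 13.1 to 22.1 in DMD PROL, 39.9 to 63.3 in WT DIFF and 22.8 to 42.2 in WT PROL. *RAMP2* made most of the WT sums, on average 48.8 of 55.3 CPM in WT DIFF and 28.03 of 32.2 in WT PROL. In DMD it made 8.32 of 10.4 CPM in DIFF and 6.15 of 18.2 in PROL. *ANGPT2* went the other way in PROL, with 48 counts in DMD PROL and 8 in WT PROL. The lower sum in DMD is thus largely that of *RAMP2*, and a sum without *RAMP2* was not computed. The part of these lists in the differences of *ERG*, *PECAM1* and *ENG* was not tested.

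**Figure D5:**
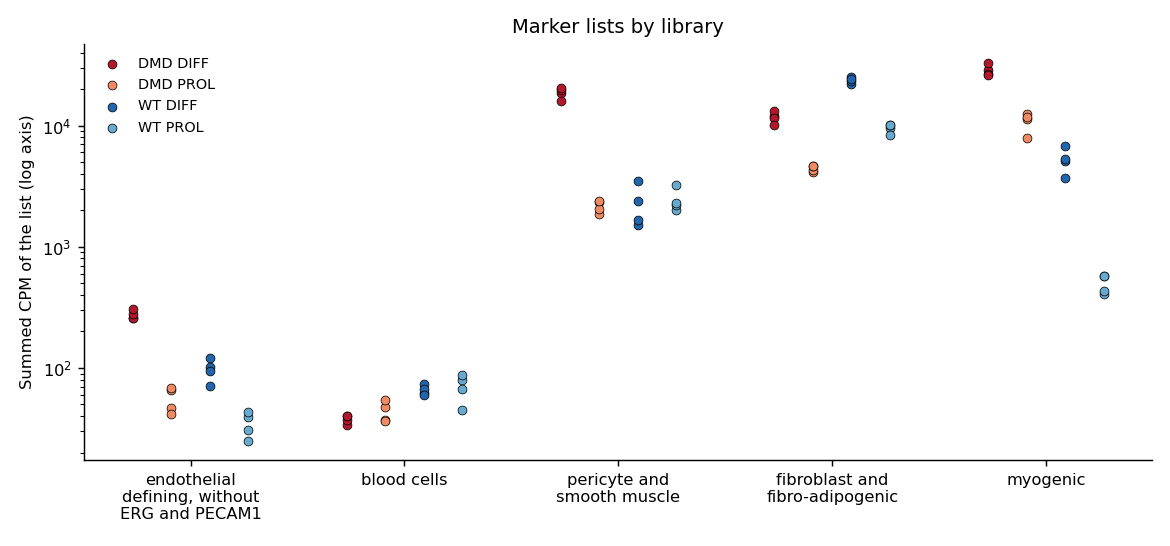
Summed CPM (log axis) of 5 marker lists in each library, by group, each point being 1 animal. The pericyte and myogenic lists are highest in DMD DIFF and the fibroblast list in WT DIFF; the endothelial list without *ERG* and *PECAM1* is highest in DMD DIFF through *PALMD* alone, at 248 to 299 CPM there, and without *PALMD* it is lowest in DMD DIFF.

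Of the 2029 other genes that passed the filter over all groups, those whose log2 CPM correlated best with each member over the 16 libraries differed between the members. For *ERG* they were *PTGES*, a prostaglandin E synthase gene (Pearson r = 0.909), *ITGB3* (0.906), *GATA2* (0.894), the steroid-reducing enzyme gene *AKR1C1* (0.881) and the protease inhibitor gene *SLPI* (0.880). *PTGES* followed the group order of *ERG*, with 212 ± 41.8 CPM in DMD DIFF, 138 ± 52.7 in DMD PROL, 355 ± 39.1 in WT DIFF and 729 ± 190 in WT PROL. For *PECAM1* they were *TMEM59L* (0.934), the complement gene *C2* (0.926), *ARPC1B*, an actin nucleation subunit gene (0.919), *SCAMP2*, a gene of secretory vesicles (0.918), and the Wnt modulator gene *SFRP2* (0.914). *SFRP2* followed the state as *PECAM1* did, with 2290 ± 595 CPM in DMD DIFF, 386 ± 18.2 in DMD PROL, 10696 ± 2603 in WT DIFF and 2871 ± 985 in WT PROL.

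For *ENG* the correlations were lower: *COMMD6* (0.806), the neuropeptide Y gene *NPY* (0.776), *CLDND1* (0.730) and *AKR1C1* (0.722). *COMMD6* was at 116 ± 15.5 CPM in DMD DIFF, 116 ± 11.9 in DMD PROL, 126 ± 12.1 in WT DIFF and 181 ± 24.3 in WT PROL, so that, like *ENG*, it stood highest in WT PROL. Among the members r was 0.738 for *ERG* and *PECAM1*, 0.629 for *ERG* and *ENG* and 0.369 for *PECAM1* and *ENG*. The 16 libraries share genotype, state and animal, so they are not independent points.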

How the data were processed

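According to the authors, 3′ libraries with unique molecular identifiers were made from 25 ng of total RNA per sample, and bcl2fastq, FastQC, MultiQC and UMI-tools prepared the reads, which STAR 2.7.10b placed on the susScr3 pig genome and counted per gene. The deposited values are raw counts per gene, not normalized, in 32 columns, 2 technical columns for each of 16 samples. The annotation and strand setting are not given in the sources used here, so reads of overlapping antisense genes cannot be told apart.

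The 2 columns were added. The tests ran in edgeR 4.0.16 under R 4.3.3 (filterByExpr with minimum count 10 and minimum total 15, TMM, estimateDisp, robust glmQLFit, glmQLFTest, Benjamini-Hochberg over all genes tested), on the 8 libraries of a state or genotype, or on all 16 for the interaction. The SE was derived from the test statistic. Intervals of log2 fold changes are 95% normal intervals around that SE. With few libraries they can be too narrow and exclude 0 where the test itself does not pass. CPM used TMM factors over all 16 libraries, and log2 CPM a prior count of 2. The script was tested on simulated data. Counting intervals are exact and use library totals without TMM factors. No library was a copy of another: within-group pairs differed by a chi-square of at least 4.50 per gene. The 2 states of an animal are paired by the labels. After the group means were removed, cultures of 1 animal correlated with r of 0.0998 to 0.172, and in 8 of 8 animals this was their best match.

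The members and gene lists were chosen with earlier results of these data known. Named are the 3 members, list genes drawn from the up to 4 called genes per comparison with the smallest *p* (of the lists of other cell types only a few of these), list genes without a count, the antigens of the cell sort, and the 5 genes most like each member, of which 1 is not reported here. Alternatives were DESeq2 1.42.0, library size alone, no filter, a filter at 20 mean CPM, halved counts, no *RN18S*, each technical column, each library left out, a block by replicate number or animal, and all 16 libraries in 1 fit.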

Additional observations from a re-analysis of the deposited data

Results flagged for a closer look

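The change of *ERG* with differentiation differed between the genotypes by a direct test, with an interaction of 1.56 on the log2 scale (SE 0.36, edgeR adjusted *p* = 0.00182). The log2 fold change of DIFF over PROL was 0.54 in DMD, higher in 3 of 4 animals and not called (edgeR adjusted *p* = 0.161). In WT it was −1.03, lower in 4 of 4 animals and called. Over 16 settings that left out 1 library each, the interaction lay between 1.38 and 1.71 and stayed called. With the first technical column alone it was 1.37 and did not pass (edgeR adjusted *p* = 0.0615). *PECAM1* and *ENG* were not called in the same test.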

How the results depend on the processing

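Of 308 alternatives for 18 results on the 3 genes, 294 kept the direction and the call. The exceptions by technical column were *ERG* in DIFF between genotypes (second column, −0.64), *PECAM1* between states in DMD (first column, 1.60) and in WT (first column, 0.89), *ENG* between states in WT (second column, −1.20) and the *ERG* interaction (first column, 1.37), none of which passed. With library size alone *PECAM1* between states in WT was 0.58 and did not pass. With 1 library left out, *ENG* lay between −1.85 and −0.54 for genotype in DIFF, with a change of sign between −0.61 and 0.71 for state in DMD, and between −1.70 and −1.03 for state in WT. *PECAM1* lay between 1.85 and 2.88 for state in DMD and between 0.93 and 1.94 in the interaction, and *ENG* per animal between −1.89 and −1.26 (exact permutation *p* = 0.0286 without DMD replicate 3). The cause of these moves was not tested. *PECAM1* and *ENG* gave no value where they missed a stricter filter.

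The replicate block changed no call in 15 results, 1 for each of the 3 genes in each comparison. With the animal as block, *PECAM1* was at 2.32 between states in DMD and at 0.90 in WT. *ERG* was at −1.05 between states in WT, and its interaction at 1.58. Between genotypes the replicates share only a number (r of −0.03 to 0.10).

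Library size alone moved the median log2 fold change of all genes by 0.14 in DIFF, −0.14 in PROL, −0.07 between states in DMD, −0.35 between states in WT and 0.28 in the interaction. Calls of 308 higher and 335 lower became 387 and 267 in DIFF, 160 and 189 became 122 and 264 in PROL, 343 and 275 became 194 and 563 in WT, and 215 and 262 became 387 and 134 in the interaction. Without DMD PROL replicate 4, chosen after seeing the data, the defining endothelial genes called higher were 2 rather than 1 between states in DMD and in the interaction. The gene added was *PECAM1*, which between the DMD states had missed the count filter with all libraries.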
